A study of Mus musculus with 23 samples.

Results

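The genes described here are 38 cell cycle and DNA replication genes, a list given by name with earlier results of these data known, followed across 23 colon arrays of BALB/c mice. Each gene was read from the probe set annotated to it alone that had the highest mean over all arrays, which gave 37 measured genes of the 18194 on the array. Ccnb1, encoding cyclin B, is not analysed here. The measured genes were split by role into 12 replication genes (Mcm2 to Mcm7, Cdc6, Cdc45, Pcna, Rrm1, Rrm2 and Tyms), 20 mitosis genes and 5 regulators of the step from G1 to S phase. The arrays fall into 4 groups: untreated wild type (n = 5), TNBS-treated wild type (n = 6), untreated Fn14 knockout (n = 5) and TNBS-treated Fn14 knockout (n = 7). The Tnfrsf12a gene encodes Fn14, to which the cytokine TWEAK binds. TNBS (trinitrobenzene sulfonic acid) is a hapten that induces colitis when given rectally. Treated mice received a 0.2% TNBS solution in equal parts of buffered saline and ethanol over 6 weeks, with the injected volume raised from 1.0 to 2.0 ul per g, and colons were taken 3 days after the last dose. The labels do not say whether untreated mice were given the ethanol vehicle or how the knockout was made, and they state no age or sex. Nothing says that each sample is a separate animal, so p-values reflect only the spread among samples, which may be technical.

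In a dividing cell the origin of replication is licensed when Cdc6 and Cdt1 load the hexameric MCM helicase onto DNA. Cdc45 then joins the helicase as replication starts, the clamp Pcna holds the polymerases on the template, and ribonucleotide reductase (Rrm1 and Rrm2) and thymidylate synthase (Tyms) supply deoxynucleotides. Most of these genes are transcribed by E2F factors as cells pass from G1 into S phase. The mitosis genes peak later, in G2 and M phase, when cyclins A and B with Cdk1 drive entry into division, the Aurora and Polo kinases and kinesin motors build the spindle, and Bub1, Bub1b and Cdc20 govern the checkpoint and its release. In the healthy colon both classes are expressed by dividing cells at the base of the crypts, and in inflamed tissue also by germinal centre B cells and other dividing immune and stromal cells.

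The promoters of both classes carry different short elements, so 4 are shown in which the classes can be compared and whose genes recur in the results below. RefSeq promoter windows of GRCm38.p6, from 250 bases before to 50 bases after an annotated start, were at hand for 30 of the 37 measured genes (31 windows, as Mcm7 has 2), and not for Aurkb, Ccna2, Ccne2, Foxm1, Kif20a, Mcm4 and Tpx2. They were searched on both strands for TTTGAA and TTTAAA (cores of the CHR element of late cell cycle genes), for CCAAT (bound by NF-Y) and for GGCGGGAA, TTTGGCGC and TTTCCCGC (forms of the E2F site). GGCGGGAA can overlap the reverse complement of TTTCCCGC, and TTTAAA reads the same on both strands. The 250 bases before the start follow, 5′ to 3′ on the strand of the gene, with matches in capitals: Mcm7 at chr5:138171884-138172133 (minus strand, the start farther upstream of its 2), Cdc6 at chr11:98907901-98908150, Rrm2 at chr12:24708004-24708253 and Kif11 at chr19:37376132-37376381 (plus strand).
Mcm7: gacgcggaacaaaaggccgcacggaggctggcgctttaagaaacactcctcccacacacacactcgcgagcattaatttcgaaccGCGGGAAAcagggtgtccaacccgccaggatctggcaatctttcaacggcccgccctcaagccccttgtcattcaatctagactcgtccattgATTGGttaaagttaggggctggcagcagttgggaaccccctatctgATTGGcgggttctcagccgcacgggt
Cdc6: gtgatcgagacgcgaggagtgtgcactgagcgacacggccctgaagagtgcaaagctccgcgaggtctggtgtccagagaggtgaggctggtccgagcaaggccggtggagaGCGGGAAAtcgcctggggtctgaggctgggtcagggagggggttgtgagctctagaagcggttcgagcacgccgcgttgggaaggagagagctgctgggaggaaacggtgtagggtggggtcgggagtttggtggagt
Rrm2: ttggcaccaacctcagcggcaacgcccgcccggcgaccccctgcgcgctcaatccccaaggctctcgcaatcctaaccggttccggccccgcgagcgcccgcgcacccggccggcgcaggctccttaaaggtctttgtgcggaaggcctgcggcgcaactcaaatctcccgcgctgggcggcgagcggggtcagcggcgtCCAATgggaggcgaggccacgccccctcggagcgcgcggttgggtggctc
Kif11: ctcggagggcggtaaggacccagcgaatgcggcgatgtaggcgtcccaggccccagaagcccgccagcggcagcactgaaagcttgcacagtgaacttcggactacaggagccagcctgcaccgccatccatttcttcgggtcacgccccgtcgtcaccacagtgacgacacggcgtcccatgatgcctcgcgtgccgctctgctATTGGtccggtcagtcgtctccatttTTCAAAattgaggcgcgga

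With the last base before the start counted as -1 and each match placed by its first printed base, the E2F form of Mcm7 lies at -165 and that of Cdc6 at -138. The CHR core of Kif11 lies at -19, with a CCAAT match at -45, and Rrm2 shows a CCAAT match at -50. Over the whole windows, an E2F form was found in 6 of 12 replication windows, in 0 of 15 mitosis windows and in 3.21% of all 32851 promoter windows. A CHR core was found in 13 of 15 mitosis windows (86.7%), in 4 of 12 replication windows (33.3%) and in 27.6% of all windows. CCAAT stood in 10 of 12 replication and 13 of 15 mitosis windows, against 37.4% of all. Among the G1/S regulators, 2 of 4 windows held an E2F form and 0 held CCAAT. A match describes letters only, and a window without one says nothing about the factor.

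All values are the deposited log2 expression values, so a difference of 1 is a doubling. The receptor gene Tnfrsf12a stood at 6.65 ± 0.52 (SD, n = 5) and 7.35 ± 0.51 (n = 6) in untreated and treated wild type and at 4.11 ± 0.06 (n = 5) and 4.06 ± 0.11 (n = 7) in the knockout, and no knockout array reached the wild-type range. Colon epithelium markers, 17 genes, averaged between 13.1 and 13.3 on every array, and none of them stood at the lowest array value of 2.17. Of the 37 cell cycle genes, 31 lay above log2 5 on all arrays. Tyms, at a mean of 4.13, and Foxm1, a transcription factor of late cell cycle genes, at 3.52, lay below 5 throughout and repeated 1 value on 13 and 12 arrays. Ccne1 (cyclin E, 11 arrays), Ccne2 (6 arrays), E2f1 and Bub1b (4 arrays each) also repeated values, so a small spread of these genes need not be a precise one. Within groups the median SD was 0.26 for replication, 0.28 for mitosis and 0.25 for G1/S genes, against 0.15 over the 11117 genes above log2 5 on at least 5 arrays.

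**Figure D1:**
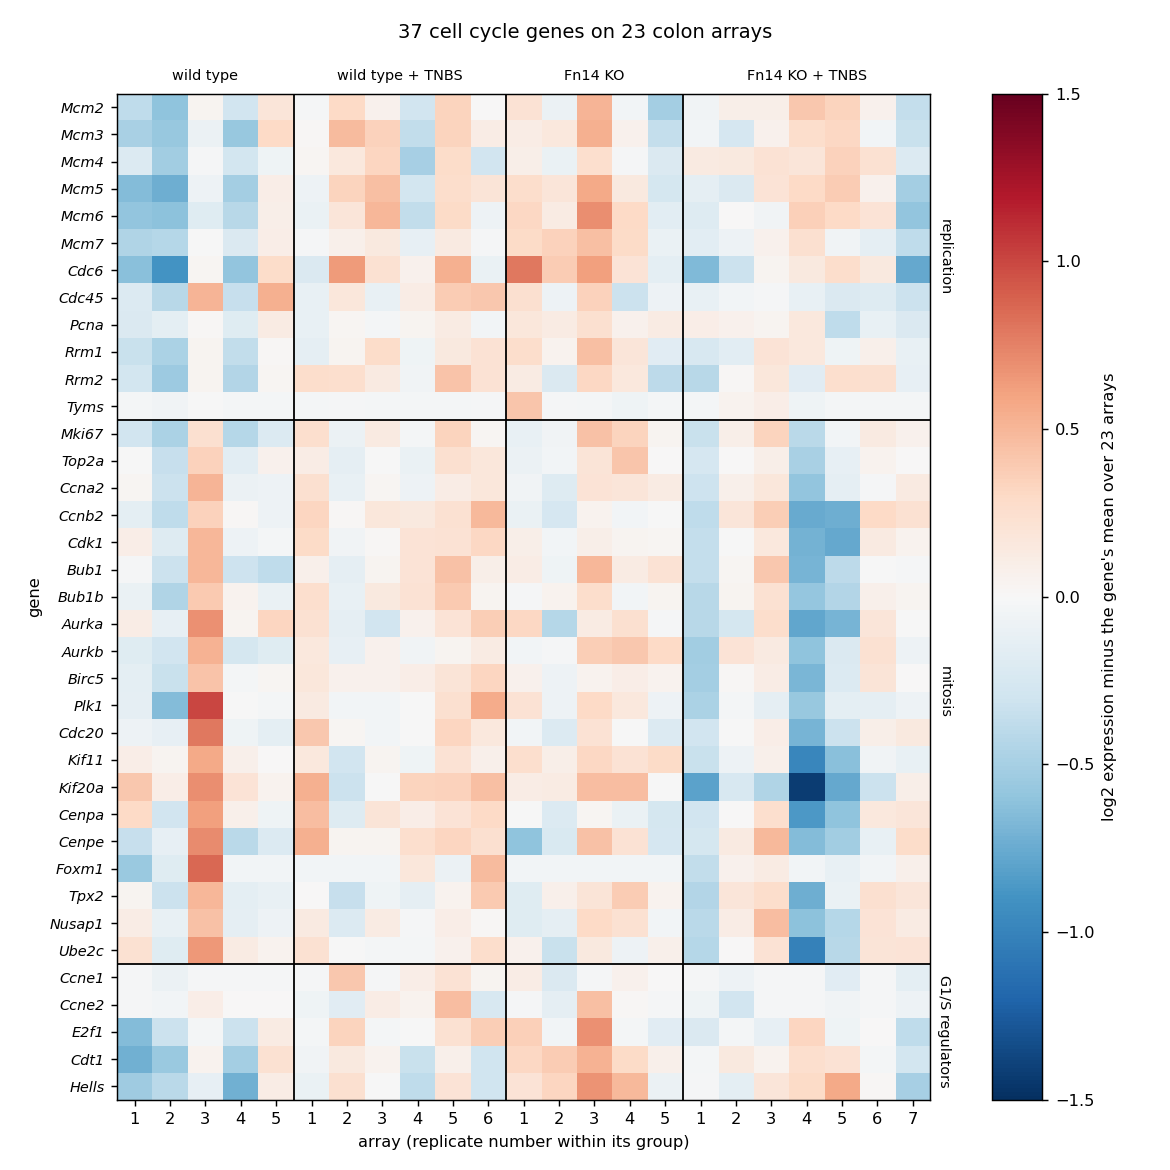
Each cell is the log2 value of 1 of 37 genes (rows, grouped by class) on 1 of 23 arrays (columns, grouped by condition) minus the mean of that gene over all arrays. Wild-type array 3 is red across all 20 mitosis genes, arrays 1, 4 and 5 of the treated knockout are blue across most of them. In the replication rows wild-type arrays 3 and 5 stand highest of their group, and treated knockout array 4 is the lowest of its group for 1 gene.

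The spread had a pattern that bears on every comparison below. Untreated wild-type array 3 was the highest of its group for all 20 mitosis genes, and the highest for 4 and second highest for 8 of 12 replication genes. Its replication mean was 8.66, against 8.77 on array 5 and 8.13 to 8.28 on arrays 1, 2 and 4. Cdc20, the activator of the anaphase-promoting complex, read 8.23, 8.18, 9.09, 8.24 and 8.16 on the 5 untreated wild-type arrays, so array 3 alone stood high. Averaged over the mitosis genes, array 3 stood at 8.45 and the other untreated wild-type arrays between 7.63 and 7.85. In the treated knockout, array 4 was the lowest of 7 for 18 of 20 mitosis genes and for 1 replication gene, and its mitosis mean was 7.19. Arrays 1 and 5 of that group followed at 7.48 and 7.49, and the remaining 4 arrays lay between 7.91 and 8.06. Ube2c, the ubiquitin-conjugating enzyme that works with Cdc20, ranged in that group from 8.62 on array 4 through a median of 9.64 to 9.86.

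Other markers differed on these arrays as well. The mean of 13 squamous epithelium markers was 2.85 on untreated wild-type array 3 (3.02 to 4.11 on the others) and 8.24 on treated knockout array 4, but 7.79 and 5.13 on treated knockout arrays 1 and 5 and 4.03 to 7.76 on the rest. The mean of the 17 colon epithelium markers was 13.09 on treated knockout array 4, the lowest of all arrays, and 13.28 on untreated wild-type array 3, the highest of its group. Their part in the values of the mitosis genes was not tested on its own, beyond the fits with covariates given with the results. Whether a lower value in this tissue means fewer dividing cells or less RNA in each cannot be told apart.

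TNBS against no TNBS in wild type asks what differed in these genes after TNBS treatment when Fn14 was present. Rrm2, the regulated subunit of ribonucleotide reductase, rose, and no other cell cycle gene passed the test. All 12 replication genes had a positive log2 fold change with a median of 0.29, while the 20 mitosis genes were split, with 14 positive and a median of 0.07. The dim Tyms counted as positive at only 0.001, and its other probe sets were negative (-0.10, -0.01 and -0.11). The 5 G1/S regulators were all positive with a median of 0.23. Over all genes the median was 0. Of the 11117 genes above log2 5 on at least 5 arrays, 5509 were positive and 5608 negative (median -0.003).

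Rrm2 read 10.50, 10.23, 10.81, 10.33 and 10.80 on the untreated arrays and between 10.72 and 11.20 (median 11.01) on the treated ones. Only 1 treated array lay within the untreated range, so the groups nearly separated. The log2 fold change was 0.45 ± 0.14 (SE; 1.36-fold, adjusted p = 0.0397). Both other Rrm2 probe sets were positive too, at 0.70 (adjusted p = 0.00842 over all probe sets) and 0.49 (adjusted p = 0.0553). Over all genes 10.2% rose and 6.27% fell, so 1 of 37 (2.70%) is a smaller share than among all genes. No member had treated and untreated wild-type groups that did not overlap, which held for 10.1% of all genes.

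The largest estimates below the threshold were also in replication genes. Cdc6, the loader of the MCM helicase, stood at 6.08 ± 0.49 (SD, n = 5) untreated and 6.64 ± 0.34 (n = 6) treated, a difference of 0.55 (adjusted p = 0.137). Mcm5 differed by 0.52 (adjusted p = 0.0649), Mcm3 by 0.43 and Mcm6 by 0.41, all helicase subunits. Pcna differed by 0.08 with a 95% interval from -0.09 to 0.25, and the large subunit gene Rrm1 by 0.30 (0.06 to 0.55). Among mitosis genes Mki67, which encodes the proliferation marker Ki-67, had the highest estimate at 0.33 (0.03 to 0.64, adjusted p = 0.133). Ccnb2 (a cyclin B) and Cenpe (a kinetochore motor) followed at 0.28 and 0.31, and the kinase gene Aurka was lowest at -0.14. This ranking depends on the probe set. Another Tpx2 probe set, above log2 5 on all arrays, stood at 0.44 (adjusted p = 0.131 over all probe sets), against -0.01 for the one used. Another Cenpe probe set stood at 0.002. Of the G1/S regulators, the transcription factor gene E2f1 stood highest at 0.39 (adjusted p = 0.108) and the chromatin remodeller gene Hells at 0.28. At unadjusted p under 0.05, 9 of 37 members were positive and 0 negative, against 15.4% and 12.2% of all genes.

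**Figure D2:**
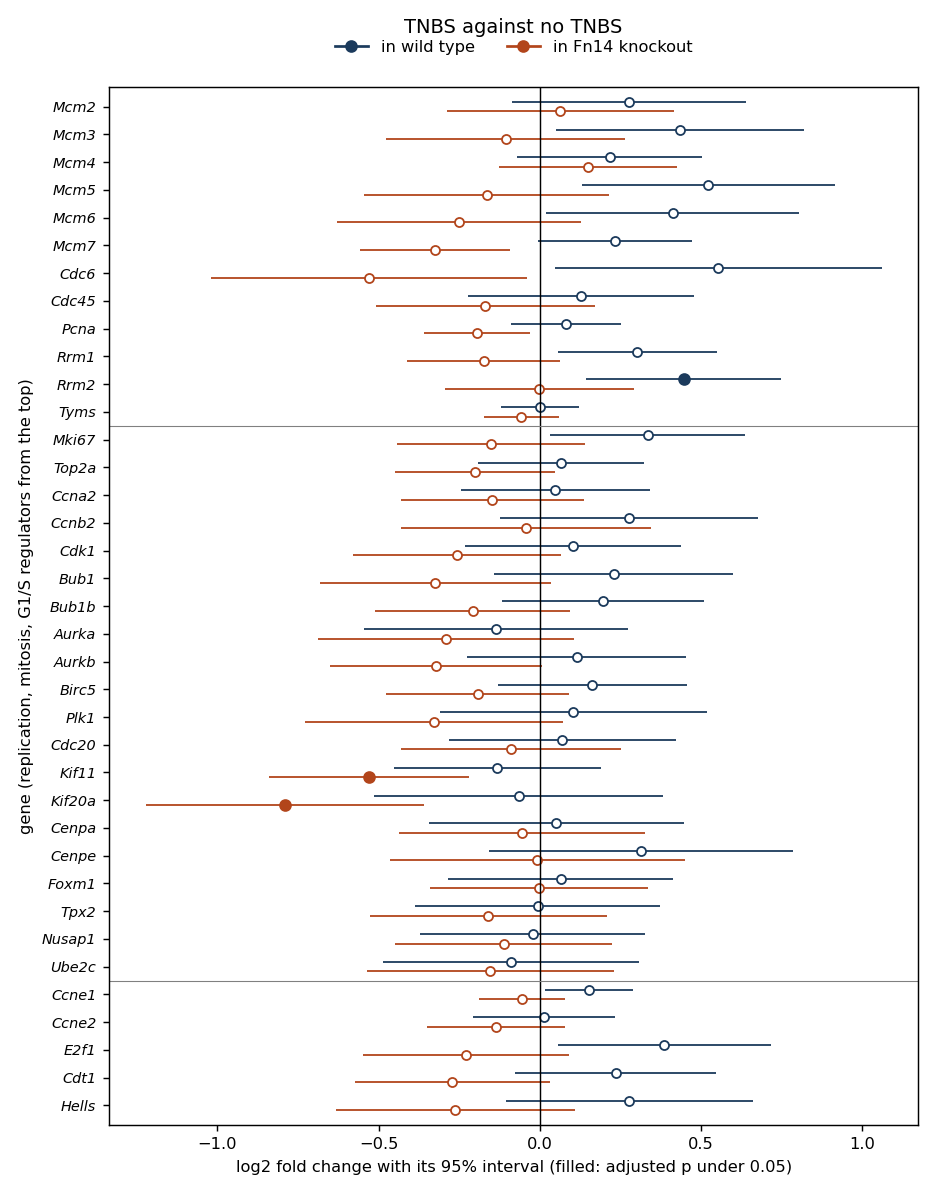
Log2 fold change of each gene (vertical axis) for TNBS against no TNBS in wild type (dark blue) and in the Fn14 knockout (red-brown), with 95% intervals; filled points passed the test. Replication genes lie right of 0 in wild type, and Kif11 and Kif20a are the filled points left of 0 in the knockout.

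The wild-type values of the mitosis genes depend on array 3: without it their median was 0.23 with 18 of 20 positive, and Rrm2, Rrm1 and Mki67 were called. The call of Rrm2 was lost without untreated array 1, 2 or 4 or treated array 1, 2, 3, 5 or 6 (adjusted p up to 0.117) with the mean of B cell or of squamous markers as a covariate (0.204 and 0.0702), and with arrays centred on their medians (0.0579) or a replicate block (0.0809). Those markers moved with TNBS: the mean of 16 B cell and germinal centre markers was 4.98 to 5.88 untreated and 5.98 to 6.73 treated, with 6 of 16 risen and Pax5 at the lowest array value throughout. Of 14 monocyte and macrophage markers 12 rose, as did 7 of 10 plasma cell, 9 of 14 T cell, 10 of 11 mast cell, 8 of 13 fibroblast and endothelial and 5 of 13 squamous markers, while 1 of 17 epithelium markers rose and 2 fell.

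A wider list of 44 measured replication and S phase genes outside the members gave 8 risen, 1 fallen and 35 not passed in wild type. Prim2, a primase subunit, rose by 1.19 ± 0.14 (adjusted p = 8.68e-06). Its untreated arrays reached at most 7.72 (median 7.39) and its treated ones lay between 8.21 and 8.86, with no overlap. Gins1, a helicase cofactor, rose by 0.71, and Slbp, the histone mRNA binding protein gene, fell by 0.23. Of 55 other mitosis genes 3 rose (Cenpi, Cks1b and Incenp, by 0.60, 0.26 and 0.33) and 0 fell, with a median of 0.16. Cenpi lay above log2 5 on 1 array only, and 20 and 15 of 38 alternatives ended the calls of Incenp and Cks1b. Among 19 cell cycle inhibitors Gadd45g, a stress-induced inhibitor of Cdk1, rose by 1.31 (adjusted p = 1.22e-05), and Cdkn2b, an inhibitor of the cyclin D kinases, and Gadd45a fell by 0.62 and 0.39. Of 22 G1 cyclins, cyclin-dependent kinases and E2F factors 2 rose and 3 fell, among them Cdk4 with +0.26 and Mycn with -0.55.

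TNBS against no TNBS in the Fn14 knockout asks the same where the receptor was missing. The kinesin genes Kif11 and Kif20a fell, and no other cell cycle gene passed. All 20 mitosis genes had a negative fold change with a median of -0.18, as had 10 of 12 replication genes (median -0.17) and all 5 G1/S regulators (median -0.23). Over all genes the median was 0. Of the 11117 genes above log2 5 on at least 5 arrays, 6775 were negative and 4342 positive (median -0.04).

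Kif11, the motor that slides spindle poles apart, read 7.76, 7.60, 7.82, 7.72 and 7.80 on untreated knockout arrays and 6.53 to 7.58 (median 7.40) on treated ones. No treated array reached the untreated range, the only such separation among the members in any comparison; 3.87% of all genes separated here. Kif11 fell by 0.53 ± 0.15 on the log2 scale (adjusted p = 0.0317). Kif20a, a kinesin of the central spindle needed for cytokinesis, read 5.93, 5.94, 6.28, 6.28 and 5.82 untreated and 4.40 to 5.91 (median 5.37) treated, so 1 treated array lay inside the untreated range. It fell by 0.79 ± 0.21 (adjusted p = 0.022). Over all genes 4.08% rose and 4.47% fell, and 2 of 37 members (5.41%) is close to that background. At unadjusted p under 0.05, 5 of 37 members were negative and 0 positive, against 13.4% and 8.86% of all genes, so the negative share is that of the background.

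Among the other mitosis genes the estimates ran from -0.33 for Plk1, the Polo kinase, to 0.00 for Foxm1. The checkpoint kinase Bub1 stood at -0.32 (95% interval -0.68 to 0.03) and the Aurora kinase Aurkb at -0.32 (-0.65 to 0.01). Cdk1 read 8.41 to 8.55 untreated and 7.69, 7.74 and 8.09 on treated arrays 5, 4 and 1, with 8.44 to 8.61 on the rest. Its group means differed by -0.26 (adjusted p = 0.366), so the low values came from 3 of 7 arrays. Ccnb2 and Nusap1, a microtubule-bundling protein, showed the same 3 arrays lowest.

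Among the replication genes, Cdc6 read 7.23, 6.82, 7.06, 6.65 and 6.30 untreated and 5.68 to 6.71 (median 6.49) treated, with a difference of -0.53 (adjusted p = 0.181). Mcm7 differed by -0.33 (adjusted p = 0.0748), with another of its probe sets called at -0.44 (adjusted p = 0.0484 over all probe sets), and Pcna by -0.20 (adjusted p = 0.137). Mcm4 and Mcm2 were the 2 positive members, at 0.15 and 0.06. Another probe set of each, above log2 5 on all arrays, was negative (-0.13 and -0.21), so their sign depends on the probe set. Rrm1 and Rrm2 stood at -0.17 and -0.001 on the probe sets used. Another probe set of each, also above log2 5 on all arrays, stood at -0.66 (adjusted p = 0.0542 over all probe sets) and -0.27. Treated array 7 was the lowest of its group for 8 of 12 replication genes and for 0 mitosis genes, and array 4 was the highest for 4 replication genes.

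Without treated array 4 the mitosis median was -0.10 with 16 of 20 negative, and Mcm7 was called beside both kinesin genes. Kif11 was not called without untreated array 1, 3, 4 or 5 or treated array 1 or 5 (adjusted p up to 0.075) and Kif20a without untreated array 3 or 4 (0.0629 and 0.0608). Neither was called when only the knockout groups were fitted (0.107 and 0.0817) or with the mean of the epithelium, B cell or squamous markers as a covariate, where Kif11 stood at -0.38, -0.33 and -0.42 and Kif20a at -0.48, -0.42 and -0.54. The other 2 Kif11 probe sets lay below log2 5 on all arrays, at -0.38 and -0.29. The B cell marker mean was 4.73 to 5.74 untreated and 4.89 to 6.51 treated, with 5 of 16 risen, and squamous markers ran from 3.06 to 5.70 and from 4.03 to 8.24, with 3 of 13 risen. Of the other lists, 10 of 14 monocyte and macrophage, 7 of 10 plasma cell, 8 of 14 T cell, 9 of 11 mast cell and 5 of 13 fibroblast and endothelial markers rose, and 3 of 17 epithelium markers (Slc26a3, Lgals4 and Epcam) fell. The part of these lists in the kinesin genes was not tested beyond the covariates above.

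In the wider lists Prim2 rose by 0.47 (adjusted p = 0.0325), and Gmnn, the inhibitor of Cdt1, and Tipin, of the replication fork protection complex, fell by 0.29 and 0.50, with 41 of 44 replication genes not passed. None of 55 other mitosis genes passed, with 50 negative and a median of -0.17. Gadd45g rose by 1.19 (adjusted p = 1e-04), Gadd45a fell by 0.53, and Rbl1, of the retinoblastoma family, fell by 0.28, a call that 27 of 38 alternatives ended, 18 of them by leaving out 1 array. Mycn and E2f6 fell by 0.54 and 0.26.

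Fn14 knockout against wild type without TNBS asks what differed in colon that had received no TNBS. Mcm7, a helicase subunit, and Cdt1, the licensing factor, rose, meaning higher in the knockout. All 12 replication genes were positive with a median of 0.31, the 20 mitosis genes were split 10 to 10 with a median of 0.02, and the 5 G1/S regulators were positive with a median of 0.40. Of the 11117 genes above log2 5 on at least 5 arrays, 6363 were positive and 4749 negative (median 0.03).

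Cdt1 read 8.47, 8.63, 9.24, 8.69 and 9.42 in wild type and 9.51, 9.58, 9.72, 9.48 and 9.27 in the knockout. Only wild-type array 5 and knockout array 5 overlapped. Cdt1 was higher by 0.62 ± 0.16 (1.54-fold, adjusted p = 0.027). Mcm7 read 9.78, 9.80, 10.22, 10.01 and 10.33 in wild type and 10.51, 10.57, 10.68, 10.52 and 10.13 in the knockout, where again knockout array 5 fell into the wild-type range. Mcm7 was higher by 0.46 ± 0.12 (1.37-fold, adjusted p = 0.0331), and its 3 other probe sets, at 0.57, 0.49 and 0.42, were called as well. Over all genes 2.92% were called higher and 1.91% lower in the knockout, and 5.56% did not overlap; 2 of 37 members (5.41%) were called higher, 0 lower, and 0 of 37 separated.

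**Figure D3:**
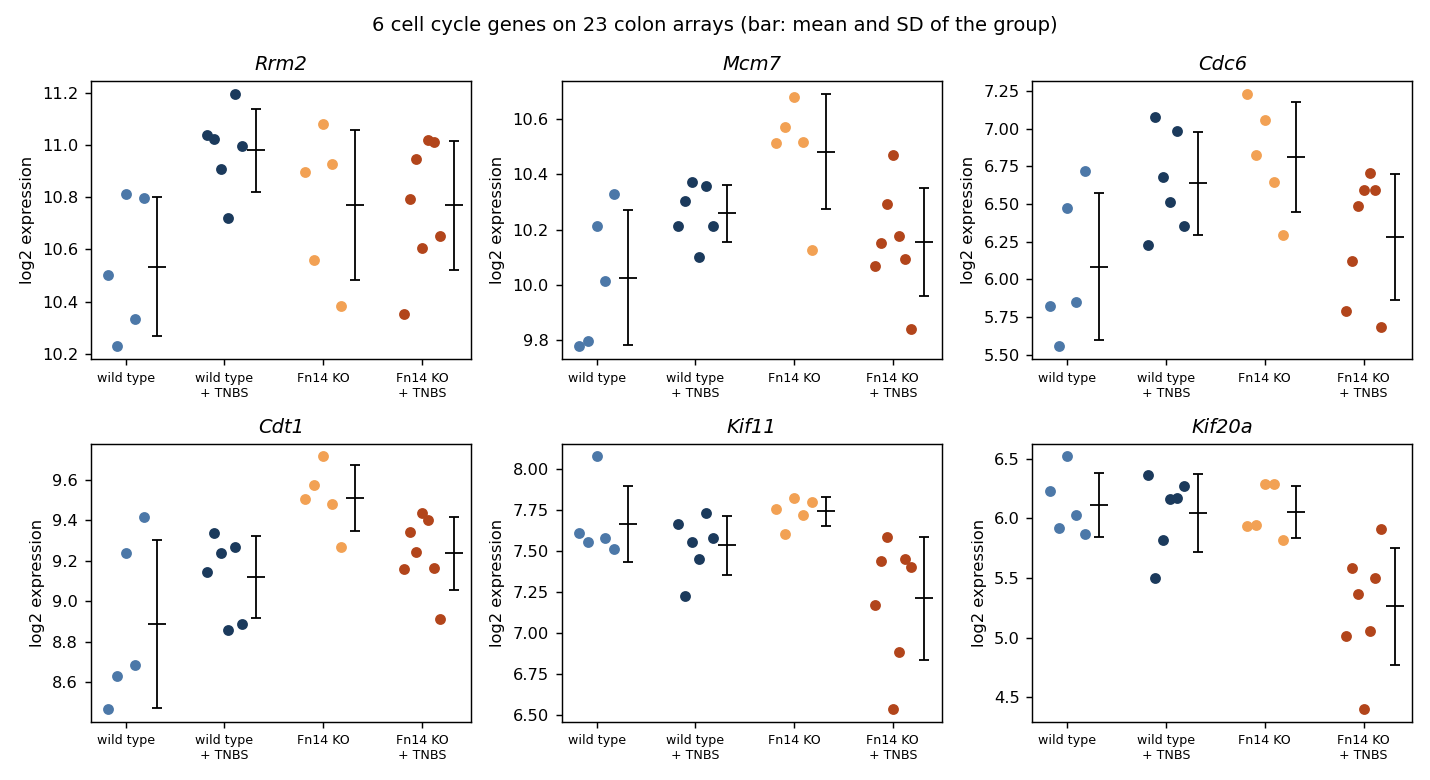
Log2 expression of 6 genes on each of the 23 arrays (points) by group, with the mean and SD of the group as a bar beside them. Untreated wild type lies lowest for Rrm2, Mcm7, Cdc6 and Cdt1, and the treated knockout lies lowest for Kif11 and Kif20a.

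Hells, which remodels chromatin at replicating DNA, had the highest estimate among the uncalled G1/S regulators at 0.65 (adjusted p = 0.0544). Its wild-type values were 6.58 to 7.41 and its knockout ones 7.22 to 7.98. Another Hells probe set, also above log2 5 on all arrays, stood at 0.28 (adjusted p = 0.501 over all probe sets). Cdc6 differed by 0.73 (0.20 to 1.26, adjusted p = 0.104), Mcm6 by 0.60 (adjusted p = 0.0846), Mcm5 by 0.55 and Rrm1 by 0.38 (adjusted p = 0.0814). Pcna, at 12.05 ± 0.14 in wild type and 12.27 ± 0.06 in the knockout (SD, n = 5 each), differed by 0.23 (adjusted p = 0.139). Among the mitosis genes only Mki67 had an interval clear of 0, at 0.36 (0.04 to 0.68, adjusted p = 0.188). Cenpa, the centromeric histone, was lowest at -0.24 (-0.65 to 0.18), and Cdk1 and Ccnb2 stood at -0.02 each.

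With wild-type array 3 left out the mitosis median was 0.17 with 17 of 20 positive, while the replication median was 0.37. The calls of Mcm7 and Cdt1 were lost without wild-type array 1, 2 or 4 or knockout array 2, 3 or 4, and that of Mcm7 also without knockout array 1 (adjusted p up to 0.0953 for Mcm7 and 0.0791 for Cdt1). Neither passed when only the untreated groups were fitted (0.143 and 0.146), and Cdt1 did not with the epithelium marker mean as a covariate (0.057). Without knockout array 5, Mcm7, Rrm1, Cdt1 and Hells were called. Knockout array 3 was the highest of its group for 28 of 37 genes and array 5 the lowest for 15.

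The wider lists gave 10 of 44 replication and S phase genes higher in the knockout, 1 lower and a median of 0.29, and 0 of 55 other mitosis genes called with a median of 0.08. Gmnn, Gins4 (a helicase cofactor) and Pole, the leading-strand polymerase, were higher by 0.36, 0.36 and 0.99 (adjusted p = 0.00475, 0.00642 and 0.0169). Of 19 replication checkpoint and recombination genes 4 were higher, among them Fanci and Topbp1 by 0.33 and 0.38. Blm, a helicase gene higher by 0.50, lay below log2 5 on all arrays. E2f7, a repressor of E2F targets, and Mycn were higher by 1.01 and 0.48. The mean of 15 crypt stem and progenitor markers was 7.30 to 7.40 over wild-type arrays and 7.32 to 7.54 over knockout arrays, with 2 of 15 called higher. The plasma cell mean was 7.80 to 7.99 in wild type against 7.22 to 7.76 in the knockout, without overlap, and 3 of 10 markers were called lower. The macrophage mean was 7.90 to 8.26 against 7.17 to 7.93, with 1 of 14 markers called lower and 11 lower at an unadjusted p under 0.05. The part of these lists in the replication genes was not tested.

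Fn14 knockout against wild type with TNBS asks whether the TNBS-treated colon differs by genotype. Kif20a was lower in the knockout, and no other member passed. All 20 mitosis genes were negative with a median of -0.30, whereas the 12 replication genes (9 negative, median -0.10) and the 5 G1/S regulators (3 negative, median -0.10) lay nearer 0. Of the 11117 genes above log2 5 on at least 5 arrays, 5999 were negative and 5118 positive.

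Kif20a ranged from 5.50 to 6.36 (median 6.17) in treated wild type and from 4.40 to 5.91 (median 5.37) in the treated knockout, and the groups overlapped. It was lower by 0.78 ± 0.20 on the log2 scale (1.72-fold, adjusted p = 0.0143), and leaving out any 1 array kept the call, as did each of the 3 marker covariates, but fitting the treated groups alone did not (adjusted p = 0.0607). Over all genes 3.73% were called higher and 6.72% lower, so 1 of 37 (2.70%) is below the background; 3.63% of all genes and 0 members separated. Another Rrm2 probe set was called lower too (-0.51, adjusted p = 0.0437 over all probe sets), while the one used here stood at -0.21 (adjusted p = 0.383). Cdk1 had the next lowest estimate at -0.38 (-0.68 to -0.07, adjusted p = 0.117), with Plk1 at -0.36, Ccnb2 and Cenpa at -0.34 each, and Birc5 (survivin, a partner of Aurkb) at -0.30 (adjusted p = 0.153). Tpx2, which activates Aurka on the spindle, stood nearest 0 at -0.04, though another Tpx2 probe set above log2 5 on all arrays stood at -0.32. Another Cdc20 probe set, also above log2 5 on all arrays, stood at -0.46 (adjusted p = 0.0894 over all probe sets), against -0.29 for the one used. So the ranking behind Kif20a depends on the probe set. Among G1/S regulators Ccne1 stood at -0.19 (adjusted p = 0.0526), on a scale where its values repeat.

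Without treated knockout array 4 the mitosis median was -0.20 with 19 of 20 negative. Marker lists of other cells also differed here: 11 of 14 monocyte and macrophage markers, 8 of 11 mast cell markers, 3 of 14 T cell markers and 5 of 13 fibroblast and endothelial markers were lower in the knockout, and 1 of 17 epithelium markers was. The macrophage mean was 8.81 to 9.51 in treated wild type and 7.85 to 8.89 in the treated knockout. Their part in the mitosis genes was not tested.

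**Figure D4:**
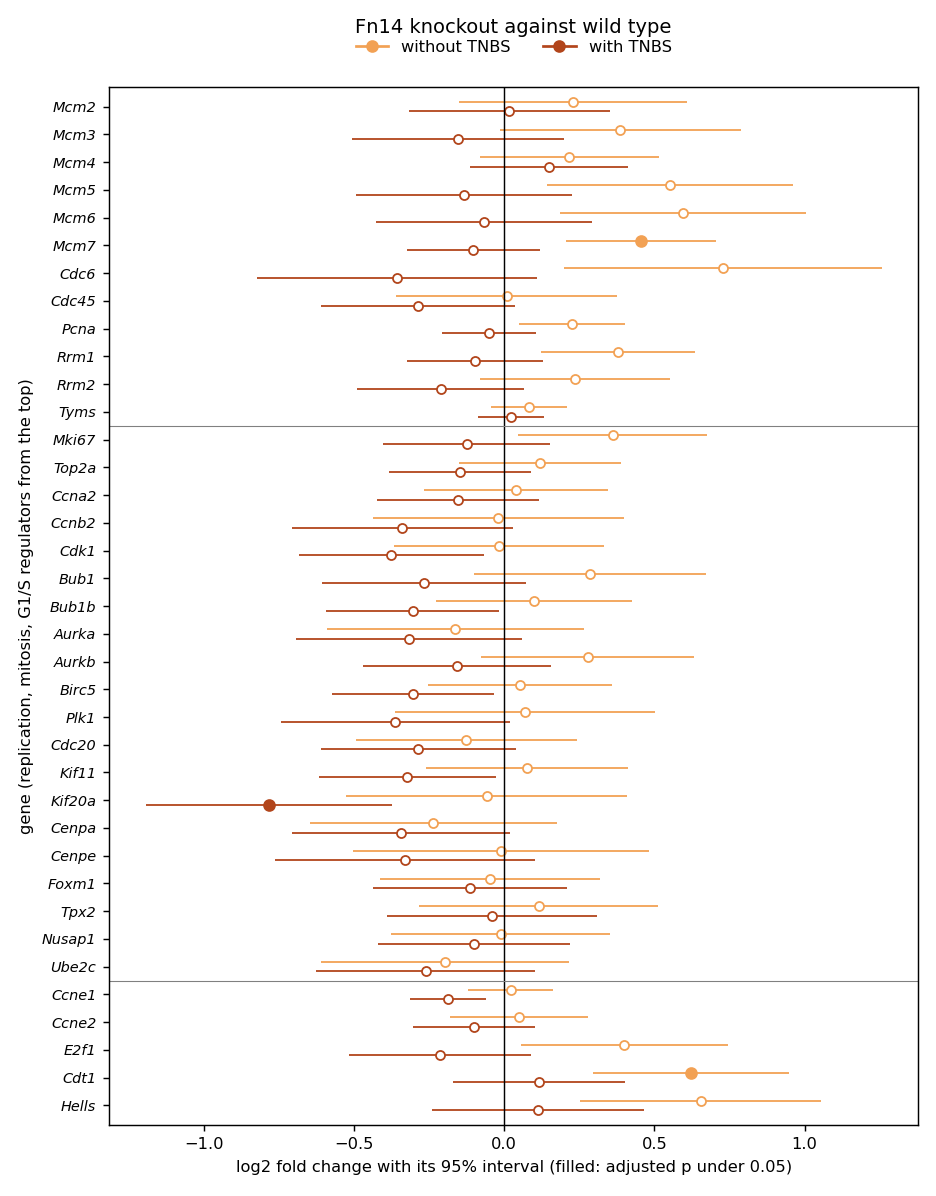
Log2 fold change of each gene (vertical axis) for Fn14 knockout against wild type without TNBS (orange) and with TNBS (red-brown), with 95% intervals; filled points passed the test. Replication genes lie right of 0 without TNBS, and every mitosis gene lies left of 0 with TNBS, with Kif20a filled.

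In the wider lists 3 of 44 replication genes were lower (Prim2 by -0.59, Dbf4, the activator of the origin-firing kinase, by -0.36, and Rpa3, of the single-strand binding complex, by -0.37) and 0 higher. Of 55 other mitosis genes 3 were lower, Cenpi, Lmnb1 (lamin B) and Mad2l1 (a checkpoint protein), by -0.62, -0.41 and -0.44, and 51 were negative with a median of -0.23. The call of Mad2l1 was lost in 24 of 38 alternatives, 17 of them by leaving out 1 array. The kinase gene Cdk2 and cyclin D gene Ccnd1 were lower by -0.59 and -0.35, while Mycn was higher by 0.49. Cdkn2b was higher by 0.58, and Btg2 and Gadd45g, antiproliferative genes, were lower by -0.47 and -0.59.

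The TNBS effect in the knockout minus that in wild type tests whether TNBS treatment moved these genes differently without Fn14. No member passed with limma: 0 were called at the adjusted threshold, against 0.621% of all genes above and 1.37% below 0. All 37 estimates were negative, as were 6666 of the 11117 genes above log2 5 on at least 5 arrays. Of the 37, 15 had an unadjusted p under 0.05 (8 of 12 replication, 3 of 20 mitosis and 4 of 5 G1/S genes), all negative. Over all genes 10.8% were negative and 4.85% positive at that p, so the mitosis count is near the background. The medians were -0.46 for replication, -0.32 for mitosis and -0.51 for G1/S genes. They were 0.00 for all genes and -0.05 for those above log2 5 on at least 5 arrays. The untreated groups enter both TNBS effects and the genotype comparisons, so these accounts share arrays.

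Cdc6 had the largest estimate: it averaged 6.08, 6.64, 6.81 and 6.28 in untreated wild type, treated wild type, untreated knockout and treated knockout, a difference of effects of -1.08 (95% interval -1.79 to -0.38, adjusted p = 0.0993). Mcm7 averaged 10.03, 10.26, 10.48 and 10.16 in that order, a difference of -0.56 (-0.89 to -0.22, adjusted p = 0.074). Of its other probe sets 1 was called (-0.76, adjusted p = 0.0438 over all probe sets). Mcm5, Mcm6 and E2f1 stood at -0.69, -0.66 and -0.62. Tyms (-0.06), Foxm1 (-0.07) and Mcm4 (-0.07) were among those nearest 0, but another bright Mcm4 probe set stood at -0.39. The median half-width of the intervals was 0.49 over the members. With array weights Mcm7 and Cdc6 were called, and Mcm7 alone without untreated wild-type array 5, untreated knockout array 5 or treated knockout array 4.

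Outside the members, 4 of 44 replication and S phase genes passed, all below 0. Clspn, the checkpoint mediator claspin, averaged 5.56, 6.35, 6.45 and 5.93 in the same order, a difference of -1.31 ± 0.32 (adjusted p = 0.0397). Tipin stood at -0.70 (adjusted p = 0.0293), Rfc1, of the clamp loader, at -0.26 (0.0313) and Gmnn at -0.36 (0.0419). Of 37 alternatives, 16 ended the call of Clspn, 10 that of Rfc1 and 9 that of Tipin. E2f7 passed with -1.43 (adjusted p = 0.0334) from group means of 4.52, 5.33, 5.53 and 4.91, and was above log2 5 on 16 of 23 arrays. Its call was lost in 9 of 37 alternatives, 8 of them by leaving out 1 array. None of 55 other mitosis genes passed.

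Replication and mitosis genes were also set against each other on each array, as the mean of the 12 replication genes minus that of the 20 mitosis genes. Only changes of this value between arrays have a meaning, since probe sets differ in brightness, and it carries no test here. In wild type it was 0.51 ± 0.27 (SD, n = 5) untreated and 0.73 ± 0.24 (n = 6) treated. In the knockout it was 0.82 ± 0.21 (n = 5) untreated and 0.89 ± 0.42 (n = 7) treated. The largest difference among the comparisons, 0.31 for the untreated genotypes, was no larger than the SD over arrays pooled within groups, 0.31. That SD describes single arrays and not the precision of a difference of group means. TNBS in wild type gave 0.22, TNBS in the knockout 0.07 and the genotypes with TNBS 0.17. The extremes were untreated wild-type array 3 at 0.21 and treated knockout array 4 at 1.60. So the groups overlapped throughout, and the value reached past the others only on treated knockout arrays 4 and 5 (1.60 and 1.26).

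The order of the group means differed by class. Untreated wild type was lowest for 11 of 12 replication genes, and the untreated knockout highest for 7. The treated knockout was lowest for 19 of 20 mitosis genes, and treated wild type highest for 10. The replication mean averaged 8.42 ± 0.28, 8.72 ± 0.16, 8.76 ± 0.23 and 8.62 ± 0.17, and the mitosis mean 7.91 ± 0.31, 7.99 ± 0.14, 7.94 ± 0.14 and 7.72 ± 0.33 (SD; untreated wild type, treated wild type, untreated knockout, treated knockout; n = 5, 6, 5 and 7). Neighbours in either order differ by less than the larger of their SDs, which describe single arrays. The replication means of the untreated wild type and knockout, the ends of that order, differ by 0.34, more than either SD. These class means carry no test.

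**Figure D5:**
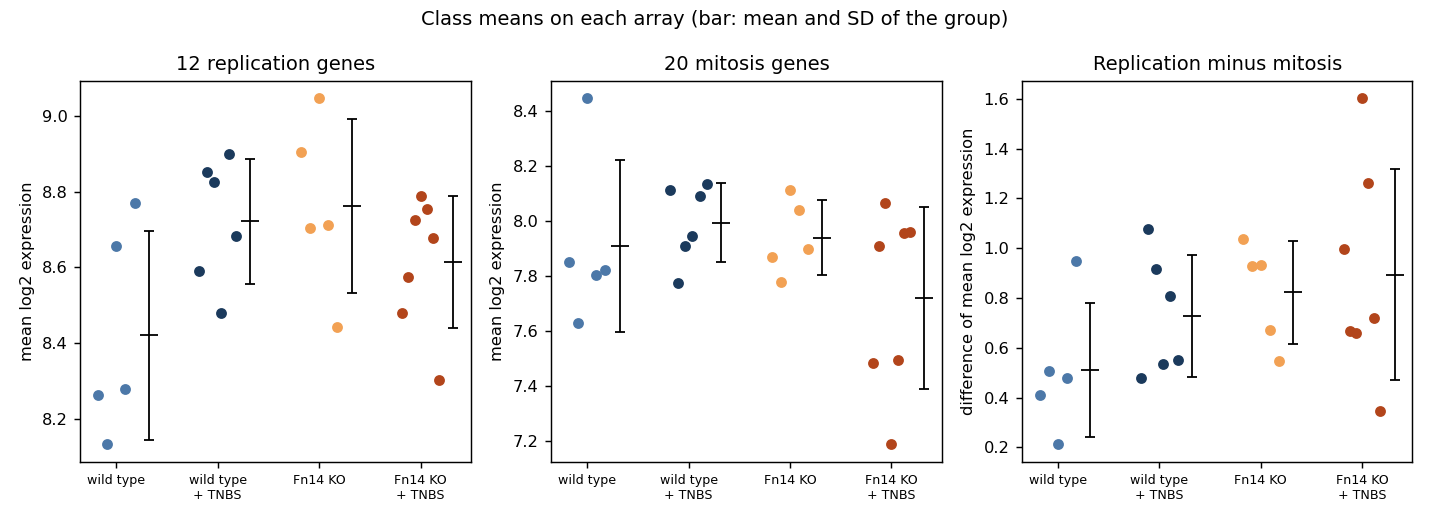
Mean log2 expression of the 12 replication genes, of the 20 mitosis genes, and their difference, on each of 23 arrays (points) by group, with the mean and SD of the group as a bar. Untreated wild type has the lowest replication mean, the treated knockout the lowest mitosis mean through 3 of its 7 arrays, and the difference overlaps across all groups.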

How the data were processed

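Biotin-labelled cRNA from total colon RNA was measured on Affymetrix arrays, 1 for each sample. For 45101 probe sets the values deposited by the authors are on a log2 scale. RMA and GCRMA stand in the submitters' processing notes, methods that correct background, normalize and summarise probes; the sources used here do not say which made the values. Values ranged from 2.17 to 15.98, and 31.6% lay within 0.01 of the lowest. No pair of arrays was identical.

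Gene names came from GEO's 2016 annotation of the platform (34958 named 1 gene, 932 several, 9211 none), and 34754 gene IDs matched GRCm38.p6 for current symbols. For each of 18194 genes the brightest probe set on average was kept. limma fitted the means of the 4 groups over all 23 arrays (19 residual and 0.475 prior degrees of freedom), with 5 contrasts. Adjusted p is Benjamini-Hochberg over all genes, threshold 0.05; the call of another probe set uses adjustment over all probe sets. Intervals are 95% from the same fit. The number of arrays limits precision, and depth has no counterpart here. The procedure was tested on simulated data.

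The members, their classes and the 5 pathway and 10 marker lists were chosen with earlier results of these data known, so a count over them is no independent evidence. Named genes are all members, plus up to 3 called genes with the smallest p per other list and comparison, of which a selection is printed. Alternatives were fits with limma's trend or robust setting, with weights for arrays or with only the groups of a comparison, and low-value filters, other choices of probe set, quantile normalization, median centring, a replicate block, marker means as covariates, and each array left out. R 4.3.3, limma 3.58.1, version 1.17.8 of the data.table package, Python 3.11.15, pandas 2.3.3 and matplotlib 3.10.9 were used.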

Additional observations from a re-analysis of the deposited data

Results flagged for a closer look

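Among the 148 sets of values tested (37 genes in 4 groups), 9 had 1 array far from the rest by Dixon's criterion; chance flags about 1 in 20. Untreated wild-type array 3 was high for Aurkb (7.98, next array 7.27), Cdc20 (9.09, next 8.24), Kif11 (8.07, next 7.61) and Cenpe (7.06, next 6.23). It was high too for the mean of the mitosis genes (8.45, next 7.85). Ccne2 was high on untreated knockout array 3 (7.41) and low on treated knockout array 2 (6.67). Mcm4 was low on treated knockout array 7 (10.06, next 10.39). Tyms was high on untreated knockout array 1 (4.54, next 4.11) and Ccne1 low on untreated wild-type array 2 (6.34), both genes whose values repeat on over 10 arrays.

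For Mcm7, Cdc6 and Ccne1, every treated wild-type array lay above the untreated wild-type mean and every treated knockout array below the untreated knockout mean. The differences of the TNBS effects were -0.56, -1.08 and -0.21, and limma gave adjusted p = 0.074, 0.0993 and 0.263, so none passed. For Ccne1 the pattern rests in part on a value of 6.40 repeated on 11 arrays, among them treated arrays of both genotypes. That value lay between the untreated means of 6.39 in wild type and 6.41 in the knockout. Outside the members, the effects differed between genotypes for Tipin (-0.70), Rfc1 (-0.26), Clspn (-1.31), E2f7 (-1.43) and Blm (-0.71), with Blm below log2 5 on all arrays.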

How the results depend on the processing

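Leaving out 1 array at a time gave 0 to 3 called members for TNBS in wild type (1 with all arrays), 0 to 3 for TNBS in the knockout (2), 0 to 4 for the untreated genotypes (2), 1 to 2 for the treated genotypes (1) and 0 to 1 for the difference of TNBS effects (0). For TNBS in wild type the count was 0 without untreated array 1, 2 or 4 or treated array 1, 2, 3, 5 or 6, and 3 without untreated array 3 or 5 or treated array 4. It was 2, with Mcm5 added, without treated knockout array 7. For TNBS in the knockout it was 0 without untreated array 3 or 4, 1 without untreated array 1 or treated array 1 or 5, and 3 without treated array 4. For the untreated genotypes it was 0 without wild-type array 1, 2 or 4 or knockout array 2, 3 or 4, 1 without knockout array 1, and 4 without knockout array 5. For the TNBS effects compared it was 1 (Mcm7) without untreated wild-type or knockout array 5 or treated knockout array 4. For the treated genotypes it was 2, with Ccne1 added, without treated wild-type array 1 or 3 or untreated knockout array 2. Array weights gave 5 calls for TNBS in wild type, 6 for the untreated genotypes and 2 for the difference of effects. A filter at log2 5 on at least 5 arrays gave 2, 5, 2 and 1 for TNBS in wild type, the untreated genotypes, the treated genotypes and the difference of effects. The second brightest probe set gave 2, 4 and 2 for TNBS in wild type, TNBS in the knockout and the treated genotypes, and the mean of probe sets gave 1 for the difference of effects. Median centring gave 0 for TNBS in wild type and 1 for the untreated genotypes. Fitting the compared groups alone gave 0 for TNBS in the knockout and for both genotype comparisons. The epithelium covariate gave 0, 1 and 2 for TNBS in the knockout, the untreated and the treated genotypes, the B cell covariate 0 for both TNBS comparisons, and the squamous covariate 0 for both and 2 for the treated genotypes. No sign was seen that replicate numbers in the labels pair the samples. Deviations of 31 same-numbered pairs correlated at a median of 0.03, and 10 exceeded 0.1. For 166 other-numbered pairs the median was 0.01, and 51 exceeded 0.1. With the replicate block, 0 members were called for TNBS in wild type and the other counts stayed at 2, 2, 1 and 0. Genes called over the whole array went from 2998, 1556, 879, 1902 and 363 to 2452, 1386, 738, 1230 and 172 with that block. The cause of these moves was not tested. With second probe sets, dim on all arrays, Cdc45 turned to -0.17 for TNBS in wild type and Cenpa to 0.74 for the treated genotypes. The difference of replication and mitosis means moved by less than its SD in all 29 alternatives of each comparison. That SD, 0.31, is no smaller than any of the differences, so this criterion does not show that they were stable. For TNBS in the knockout the range of the difference crossed 0 (-0.05 to 0.16). Half-widths of the 95% intervals had medians of 0.32 to 0.49 over the members, and smaller changes than these are poorly resolved.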
